A study of Mus musculus with 12 samples.

Results

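The nuclear-encoded subunits of oxidative phosphorylation were examined in RNA-seq libraries of microglial preparations from mouse brain. Members were chosen by name alone: genes whose symbol begins with Ndufa, Ndufb, Ndufc, Ndufs or Ndufv and a digit, with Uqcr, with Cox4 to Cox8, or with Atp5, leaving out names with -ps. This rule found 80 of the 23845 genes in the table, of which 37 belong by name to complex I, 8 to complex III, 18 to complex IV and 17 to complex V. Of these, 78 passed the filter on low counts and were tested. Those not tested are Cox8c, the germ-cell form of subunit VIII, which was at 0 TPM in every library, and Cox7b2, at no more than 3.1 TPM in any library. The rule takes names, not function: Ndufa4 is now regarded as a subunit of complex IV, and Atp5s and Atp5sl (Dmac2l and Dmac2 in RefSeq) are not core subunits of the ATP synthase.

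Oxidative phosphorylation is carried out by protein complexes of the inner mitochondrial membrane. Complex I oxidises NADH, complex III passes electrons from ubiquinol to cytochrome c, and complex IV, cytochrome c oxidase, passes them to oxygen; all of these pump protons, and complex V, the ATP synthase, uses the proton gradient to make ATP. Most subunits are encoded in the nucleus and a few in mitochondrial DNA; the 13 mitochondrially encoded subunits were not analysed here. Neurons depend strongly on this pathway, and macrophages and microglia exposed to lipopolysaccharide are known to shift towards glycolysis.

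The 12 libraries fall into 4 groups of 3: WT-LPS, WT, CPEB1-KO-LPS and CPEB1-KO. All mice were of the C57BL6/J strain and 3 to 4 months old, each library came from 1 animal, and the libraries were made from poly(A) RNA of cells isolated on Percoll gradients. WT-LPS and CPEB1-KO-LPS mice had been injected with lipopolysaccharide (LPS) 24 h before the cells were taken. LPS is a component of the outer membrane of Gram-negative bacteria and triggers innate immunity. The WT and CPEB1-KO groups are the animals whose label names no LPS. CPEB1 is an RNA-binding protein that regulates poly(A) tails and translation, and the CPEB1-KO and CPEB1-KO-LPS groups are labelled as its knockout, with no detail of the allele. No source used here gives how much LPS was injected, whether the mice were male or female, or whether the libraries kept strand.

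Library totals, in M (1e+06 counts), ran from 9.25 to 13.5 M outside the WT group and from 5.02 to 9.49 M in WT. Cpeb1 transcripts were present in the libraries labelled knockout, at 24.0 to 40.6 TPM in CPEB1-KO-LPS and 17.6 to 26.4 TPM in CPEB1-KO, against 24.1 to 45.1 TPM in WT-LPS and 15.5 to 43.2 TPM in WT, so the label cannot be checked from this level. The preparations were not pure: 10 microglial markers summed to 3424 to 16265 TPM, but markers of 8 other cell classes were found too, and 0 of the markers were at 0 TPM throughout any group. The 12 neuronal markers summed to 2418 to 6328 TPM in WT-LPS and 1413 to 3828 TPM in WT, and to 2583 to 4746 TPM in CPEB1-KO-LPS and 3884 to 5596 TPM in CPEB1-KO. In such bulk samples, fewer cells of a type and less RNA per cell cannot be told apart.

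Subunit transcripts made up 4.36% to 7.21% of all TPM in a library, TPM being transcripts per 1e+06 transcripts, a level corrected for transcript length. The members spanned a wide range of mean level over the 12 libraries. Atp5k, subunit e of the ATP synthase, had the highest mean, 5260.0 TPM, followed by Cox8a, the ubiquitous form of subunit VIII of cytochrome c oxidase, at 3103 TPM. In complex I the highest was Ndufa3, an accessory subunit of the membrane arm, at 1842 TPM, and in complex III Uqcr11, a small accessory subunit, at 1342 TPM. At the low end of the tested members were Ndufa4l2, a hypoxia-inducible relative of Ndufa4, at 2.46 TPM and Cox4i2, the lung-type form of subunit IV, at 4.8 TPM.

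The summed level of the members was set against Snap25, a protein of the presynaptic membrane fusion machinery that serves as a neuronal marker. In WT-LPS, libraries 1, 2 and 3 had 59015, 48298 and 43614 TPM of subunits beside 2439.8, 686 and 783 TPM of Snap25. In WT they had 72093, 53594 and 45542 TPM of subunits beside 1457, 576 and 572 TPM of Snap25. The order of the sums followed that of Snap25 in WT, and the highest sum lay at the highest Snap25 in WT-LPS too. In CPEB1-KO-LPS the sums were 61801, 62953.5 and 52440.2 TPM beside 1579, 1809 and 853 TPM of Snap25. In CPEB1-KO they were 68379.9, 68796 and 72117 TPM beside 1405, 2091 and 2208 TPM of Snap25. In each of the 4 groups the library with the most Snap25 thus also had the highest subunit sum in TPM. On log2 CPM (counts per 1e+06 counts), averaged over the tested members, this held in WT-LPS and WT only: the library with the most Snap25 was the lowest of its group in CPEB1-KO-LPS (6.73, against 6.79 and 6.84 in the others) and not the highest in CPEB1-KO (6.93, against 6.94 and 6.88 in the others). The TPM sums of CPEB1-KO-LPS lay below those of CPEB1-KO without overlap, while those of WT-LPS and WT overlapped.

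**Figure D1:**
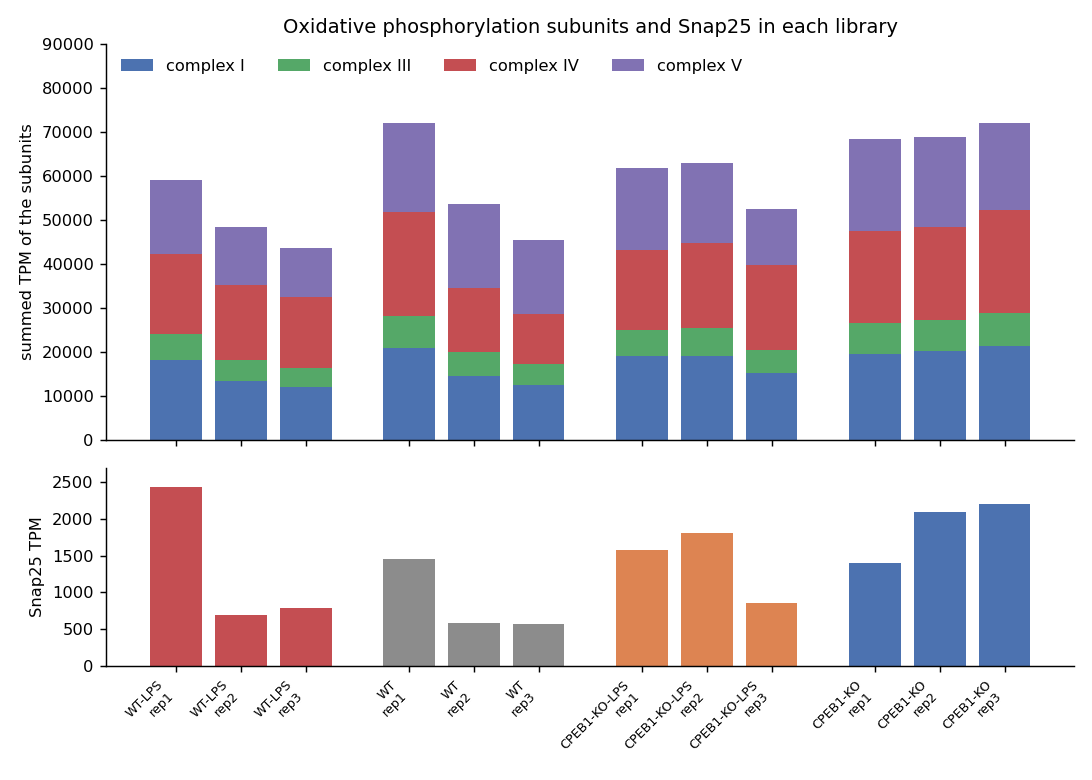
Upper panel: summed TPM of the subunits of complexes I, III, IV and V (stacked colours) in each of the 12 libraries. Lower panel: Snap25 TPM in the same libraries, coloured by group; the library with the most Snap25 in each group has the tallest stack, for example WT-LPS rep1 (59015 TPM beside 2439.8 TPM).

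In all 4 groups a larger share of the members than of all tested genes had its highest TPM in the library with the most Snap25. In WT-LPS, 73 of 78 tested members (93.6%) had their highest TPM in the library with the most Snap25, where 43.7% of all tested genes did. In WT the count was 70 of 78 (89.7%), beside 51.4% of all tested genes. In CPEB1-KO-LPS it was 35 of 78 (44.9%, beside 31.8%) and in CPEB1-KO 54 of 78 (69.2%, beside 33.0%). At the other end, the library with the least Snap25 TPM held the lowest TPM of 15 of 78 members in WT-LPS (19.2%, beside 47.7% of all tested genes). The count was 60 in WT (76.9%, beside 29.5%), 68 in CPEB1-KO-LPS (87.2%, beside 67.1%) and 49 in CPEB1-KO (62.8%, beside 47.6%). These shares describe which library stood highest or lowest and carry no test, since genes of 1 library are not independent. The lowest shares of WT-LPS and WT also rest on libraries with close Snap25 levels. In WT, replicates 2 and 3 had 576 and 572 TPM of Snap25. In WT-LPS the least Snap25 was in replicate 2 on TPM (686, against 783 in replicate 3). On log2 CPM it was in replicate 3 (9.69, against 9.73 in replicate 2).

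After LPS in wild type, more subunits fell than rose on counts, but not on log2(TPM + 1) or with a trend of length removed. In WT-LPS against WT, 23 of 78 tested members (29.5%) were lower and 1, Uqcrc2, was higher at an adjusted p under 0.05 (edgeR quasi-likelihood test, Benjamini-Hochberg over 15295 genes). Over all tested genes 14.9% were lower and 12.4% higher. The members' median log2 fold change was -0.38, beside -0.03 over all tested genes, and 64 of 78 were negative. The lower members came from each complex: 10 of 37 members of complex I, 4 of 8 of complex III, 4 of 16 tested of complex IV and 5 of 17 of complex V were lower. The direction of the group as a whole depends on how length and composition are handled: 56 of 78 members were positive once a trend with transcript length was removed, and on log2(TPM + 1) with limma 5 members were higher and 5 lower (22.1% and 7.11% of all genes), with a median of -0.08 beside a shift of 0.28 in the median of all genes. The count of 24 was 8 without WT replicate 2, 8 without WT-LPS replicate 3, 14 without WT-LPS replicate 2 and 15 without WT replicate 1. The shares over all genes in those fits are not given here. With only the WT-LPS and WT libraries in the fit, 8 members were lower (10.3%, beside 9.44% of all genes) and 0 higher (beside 8.24%).

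**Figure D2:**
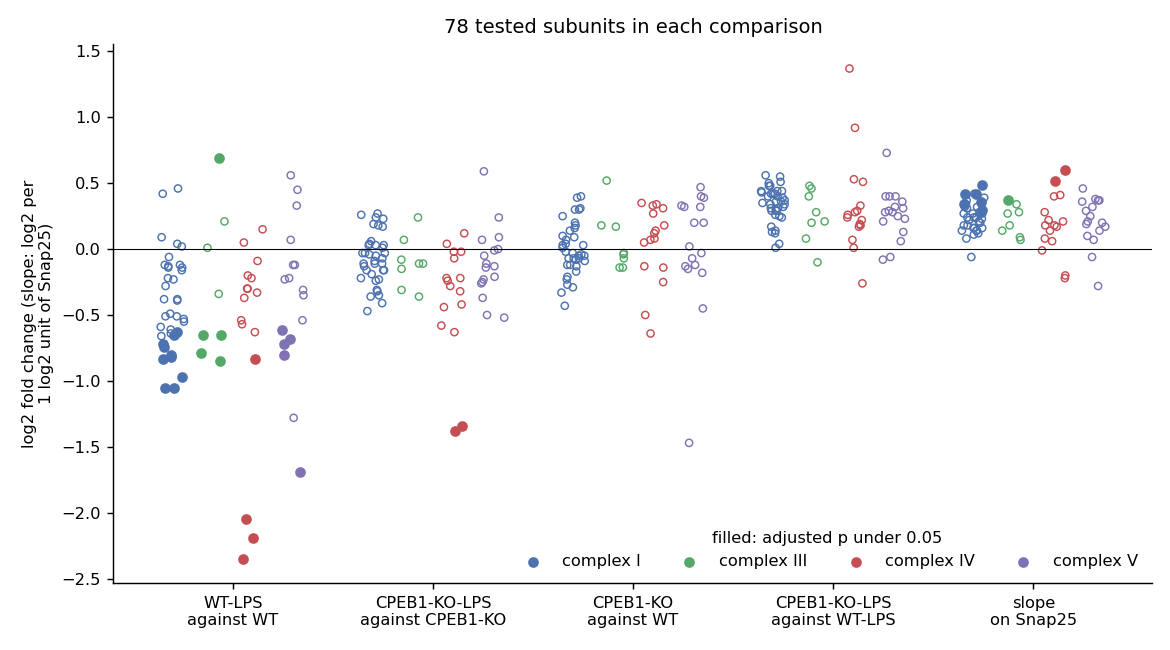
Log2 fold change of each of the 78 tested subunits in 4 comparisons, and the slope of its log2 level per log2 unit of Snap25 within groups (right), coloured by complex; filled points have an adjusted p under 0.05. The 23 lower members of WT-LPS against WT reach -2.35, 2 members are lower in CPEB1-KO-LPS against CPEB1-KO, 0 are called in either genotype comparison, and 9 have a called positive slope.

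Complex IV held the 3 largest falls among the tested members. Its catalytic core is mitochondrially encoded, and the nuclear subunits around it occur in ubiquitous forms and in tissue-restricted forms. Cox8b, the form of subunit VIII known from heart, skeletal muscle and brown fat, had 25.7, 9.22 and 19.1 TPM in WT-LPS, against 72.5, 75.2 and 69.1 TPM in WT. All WT-LPS libraries lay below all WT libraries, and the log2 fold change was -2.35 ± 0.39 (SE; adjusted p = 0.00131). Cox7a1, the muscle-type form of subunit VIIa, had 17.5, 17.9 and 27.1 TPM in WT-LPS, against 79.0, 84.8 and 57.2 TPM in WT. The groups did not overlap, with a log2 fold change of -2.19 ± 0.38 (adjusted p = 0.00161). Cox6b2, the form of subunit VIb known from testis, had 11.5, 8.57 and 17.8 TPM in WT-LPS, against 43.5, 50.4 and 26.3 TPM in WT. Again the WT-LPS libraries were all lower, with a log2 fold change of -2.05 ± 0.39 (adjusted p = 0.00267). Over all 12 libraries the expected counts summed to 509 for Cox8b, 388 for Cox7a1 and 624 for Cox6b2, against 71484 for Cox8a, so their values rest on few reads. These 3 genes and Atp5k kept their direction and an adjusted p under 0.05 in each of the 25 alternatives run, the highest being 0.0442.

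The ubiquitous partners of these forms are expressed at far higher levels and did not pass the test. Cox8a had 2760.3, 3108 and 3256 TPM in WT-LPS, against 3502, 2413 and 1712 TPM in WT, which overlapped. Its log2 fold change on counts was -0.09 ± 0.27 (adjusted p = 0.829) and changed sign to 0.76 (adjusted p = 0.0493) when the length trend was removed. Cox8b made up 0.922%, 0.296% and 0.583% of the summed Cox8b and Cox8a TPM in WT-LPS, against 2.03%, 3.02% and 3.88% in WT. Cox7a1 made up 2.92%, 4.94% and 8.14% of Cox7a1 and Cox7a2 in WT-LPS, against 8.91%, 21.8% and 13.5% in WT. Cox6b2 made up 0.711%, 0.598% and 1.39% of Cox6b2 and Cox6b1 in WT-LPS, against 2.28%, 3.65% and 2.45% in WT. In each of these 3 gene pairs the share of the restricted form was lower in all WT-LPS libraries than in all WT libraries; the shares are descriptions and were not tested. The other restricted forms did not pass the test, which does not show that they differ from these 3: Cox6a2, the muscle-type form of subunit VIa, had a log2 fold change of -0.54 ± 0.36 (adjusted p = 0.28) and Cox4i2 one of 0.15 ± 0.45 (adjusted p = 0.824). Cox6a2 made up 0.995%, 0.649% and 0.457% of Cox6a2 and Cox6a1 in WT-LPS, against 0.845%, 1.04% and 1.5% in WT, which overlapped.

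**Figure D3:**
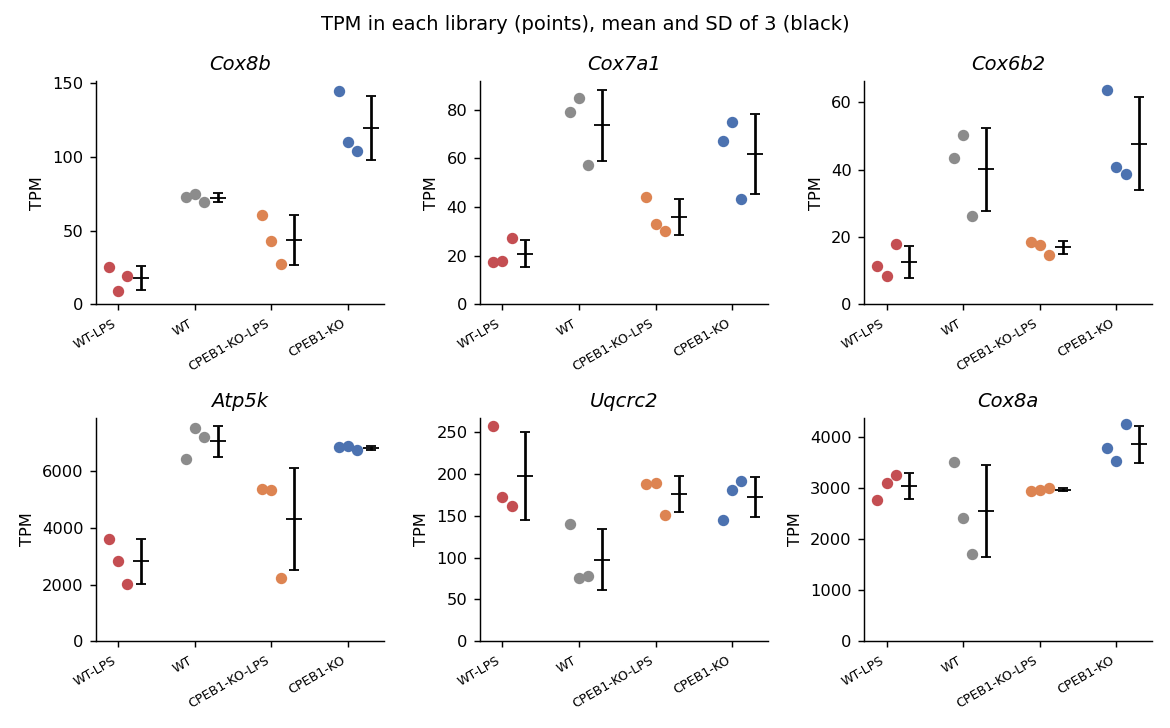
TPM of Cox8b, Cox7a1, Cox6b2, Atp5k, Uqcrc2 and Cox8a in each library (coloured points; y axes start at 0), with the mean and SD of the 3 libraries of a group in black. Cox8b, Cox7a1, Cox6b2 and Atp5k are lower in all WT-LPS libraries than in all WT libraries, Uqcrc2 is higher in all of them, and Cox8a overlaps.

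The start regions of the 3 restricted forms are shown beside those of their ubiquitous partners, because the restricted forms fell while their partners did not pass the test; the difference within a pair was not tested. Sequences are RefSeq windows of 300 bases on build GRCm38.p6, from 250 bases before to 50 after the start, on the gene's strand; capitals mark matches, on either strand, to the NRF1 motif GCGCATGCGC, the ETS motif CCGGAAG, the YY1 motif AANATGGCG or the TATA motif TATAAA. NRF1, GABPA (an ETS factor) and YY1 are known regulators of nuclear genes for mitochondrial proteins. The windows are chr7:140900397-140900696, minus strand, for Cox8b; chr19:7217567-7217866, minus strand, for Cox8a; chr7:30183921-30184220, plus strand, for Cox7a1; chr9:79759804-79760103, minus strand, for Cox7a2; chr7:4753045-4753344, minus strand, for Cox6b2; and chr7:30626065-30626364, minus strand, for Cox6b1.
Cox8b: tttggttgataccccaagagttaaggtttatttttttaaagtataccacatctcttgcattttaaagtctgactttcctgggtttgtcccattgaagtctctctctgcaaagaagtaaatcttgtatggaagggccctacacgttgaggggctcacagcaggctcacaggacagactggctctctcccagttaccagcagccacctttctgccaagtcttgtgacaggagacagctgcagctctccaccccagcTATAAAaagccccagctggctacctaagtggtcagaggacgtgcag
Cox8a: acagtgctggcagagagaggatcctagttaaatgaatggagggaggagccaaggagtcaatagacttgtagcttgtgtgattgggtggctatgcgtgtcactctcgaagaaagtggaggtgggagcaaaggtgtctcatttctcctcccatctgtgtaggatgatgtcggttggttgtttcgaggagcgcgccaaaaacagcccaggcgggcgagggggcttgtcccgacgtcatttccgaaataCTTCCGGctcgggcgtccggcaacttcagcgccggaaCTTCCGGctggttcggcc
Cox7a1: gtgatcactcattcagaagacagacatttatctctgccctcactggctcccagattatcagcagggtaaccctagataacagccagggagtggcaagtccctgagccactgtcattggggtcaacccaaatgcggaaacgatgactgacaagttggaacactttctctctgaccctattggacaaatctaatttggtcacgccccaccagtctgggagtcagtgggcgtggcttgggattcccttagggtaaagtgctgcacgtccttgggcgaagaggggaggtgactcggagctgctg
Cox7a2: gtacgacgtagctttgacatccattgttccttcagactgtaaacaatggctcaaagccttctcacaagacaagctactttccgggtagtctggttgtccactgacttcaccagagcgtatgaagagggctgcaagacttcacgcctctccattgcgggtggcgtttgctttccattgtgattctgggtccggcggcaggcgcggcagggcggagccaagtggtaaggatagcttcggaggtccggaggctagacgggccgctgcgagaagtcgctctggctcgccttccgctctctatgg
Cox6b2: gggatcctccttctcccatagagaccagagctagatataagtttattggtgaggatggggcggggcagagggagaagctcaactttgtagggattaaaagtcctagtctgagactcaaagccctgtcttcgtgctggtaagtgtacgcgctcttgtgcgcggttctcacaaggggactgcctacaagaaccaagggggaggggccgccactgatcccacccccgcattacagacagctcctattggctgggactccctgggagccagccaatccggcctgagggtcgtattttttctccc
Cox6b1: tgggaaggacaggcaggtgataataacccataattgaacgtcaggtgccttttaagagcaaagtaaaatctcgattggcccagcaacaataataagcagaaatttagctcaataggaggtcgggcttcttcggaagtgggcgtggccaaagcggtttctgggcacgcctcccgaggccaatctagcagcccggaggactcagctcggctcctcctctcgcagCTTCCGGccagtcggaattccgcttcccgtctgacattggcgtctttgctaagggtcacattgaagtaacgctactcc

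The Cox8b window held 1 TATA match and 2 CpG dinucleotides, and the Cox8a window 2 ETS matches and 19 CpG. The Cox7a1 window held 7 CpG and that of Cox7a2 20, with no match to the 4 motifs in either. The Cox6b2 window held 10 CpG and no match, and that of Cox6b1 17 CpG and 1 ETS match. In each pair the window of the restricted form thus held fewer CpG than that of its partner. Of the 66 members with a window in the RefSeq table, 5 (7.58%) held the NRF1 motif, against 0.977% of 27025 windows, 1 for each gene. The ETS motif stood in 13 members (19.7%, against 9.12%), the YY1 motif in 9 (13.6%, against 2.51%) and the TATA motif in 7 (10.6%, against 14.2%). The member windows held a median of 19 CpG, against 7 over all windows. The NRF1, ETS and YY1 motifs each contain a CpG and the TATA motif does not, and the part of CpG content in these shares was not tested. Matches to different motifs may overlap, and a match is a description of letters, not of binding.

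The abundant members of complex IV showed no called change. Cox4i1, the ubiquitous subunit IV, Cox5b, which binds zinc, and Cox6a1 had log2 fold changes of -0.22, -0.30 and 0.05 in WT-LPS against WT (adjusted p = 0.58, 0.363 and 0.94). Ndufa4, counted with complex I by name, was at -0.06 (adjusted p = 0.894). Cox4i1, Cox5b and Ndufa4 changed sign, to 0.45, 0.29 and 0.67, with the length trend removed, and did not pass there either. Cox7a2l, which helps to join complexes III and IV into supercomplexes, had 356, 193 and 223 TPM in WT-LPS, against 395, 376 and 287 TPM in WT. Its fall of 0.83 on the log2 scale passed (adjusted p = 0.0404) although 1 WT-LPS library lay within the WT range, and it missed the threshold in 13 of 25 alternatives.

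In complex V, Atp5k, which takes part in the dimerisation of the ATP synthase, fell most. It had 3597, 2819.5 and 2033 TPM in WT-LPS, against 6447, 7535 and 7209 TPM in WT. The groups stood far apart, with a log2 fold change of -1.69 ± 0.24 (adjusted p = 0.000618). The other called members were Atp5d, the delta subunit, Atp5j, or factor F6 of the peripheral stalk, and the small membrane subunits Atp5j2 and Atp5l. Their log2 fold changes lay between -0.80 and -0.61, with adjusted p between 0.013 and 0.0374. The subunits that form the catalytic head, Atp5a1 and Atp5b, had log2 fold changes of 0.56 (adjusted p = 0.151) and 0.45 (adjusted p = 0.256). Atpif1, the inhibitor of the ATP synthase, which lies outside the name rule, was at -0.56 ± 0.26 (adjusted p = 0.126).

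Complex III held the 1 member that was higher. Uqcrc2, core protein 2 of the complex, had 258, 173 and 162 TPM in WT-LPS, against 140.0, 75.3 and 77.4 TPM in WT. All WT-LPS libraries were above all WT libraries, with a log2 fold change of 0.69 ± 0.23 (adjusted p = 0.0415). The call was lost in 10 of 25 alternatives. Among them were the mean level of the neuronal markers as a covariate and each fit without 1 of the CPEB1-KO libraries. With Snap25 as a covariate the call was kept. It was lost with the replicate number as a block over all 12 libraries (adjusted p = 0.0532). With that block over the WT-LPS and WT libraries alone it was kept (adjusted p = 0.0335). Among the small subunits 4 fell: Uqcrh, the hinge protein next to cytochrome c1, by 0.85, Uqcr11 by 0.79, and Uqcr10 and Uqcrq each by 0.65 on the log2 scale, with adjusted p between 0.0179 and 0.0313. Uqcr11 had 1142, 1085 and 969.7 TPM in WT-LPS, against 1853, 1382 and 1083 TPM in WT, so that on TPM 2 of the WT-LPS libraries lay at or above the lowest WT library. With the length trend removed its value changed sign to 0.14 (adjusted p = 0.618). Uqcrfs1, the Rieske iron-sulphur protein, and Uqcrc1, core protein 1, were at 0.01 and 0.21 (adjusted p = 0.982 and 0.509).

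In complex I the 10 called members were accessory subunits. Ndufa5, an accessory subunit of the peripheral arm, had 477, 314 and 264 TPM in WT-LPS, against 659, 504 and 550.2 TPM in WT. The groups did not overlap, and the log2 fold change was -1.05 ± 0.21 (adjusted p = 0.00348). Ndufa3 had 1495, 1193 and 1048 TPM in WT-LPS, against 2249, 2173 and 1549 TPM in WT, again without overlap, with a log2 fold change of -1.05 ± 0.22 (adjusted p = 0.00449). The other called members were Ndufc1 (-0.97), Ndufa2 (-0.83), Ndufa6 (-0.82), Ndufa1 (-0.80), Ndufa13 (-0.74), Ndufs5 (-0.72), Ndufb3 (-0.65) and Ndufa7 (-0.63). The core subunits that carry the redox centres did not pass: Ndufs1, which holds iron-sulphur clusters, was at 0.42 (adjusted p = 0.123) and Ndufv1, which binds NADH and flavin, at -0.38 (adjusted p = 0.168).

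Short transcripts as a class were lower in WT-LPS, and most of the subunits are short. The members' transcripts had a median length of 729 nt, against 2915 nt over the tested genes, and 71 of 78 lay in the shortest of 4 equal length classes, up to 1887 nt. In WT-LPS against WT the 3711 other genes of that class had a median log2 fold change of -0.38, and the 71 members in it had -0.51; in the longest class the median was 0.26. The 23 lower members had a median length of 544 nt, and the other 55 tested members 838 nt. The difference in centred log2 level between the shortest and the longest class was -0.13, -0.25 and -0.59 in WT-LPS, against 0.29, 0.37 and 0.26 in WT, and 0.09, -0.08 and 0.17 in CPEB1-KO-LPS, against 0.11, -0.12 and -0.05 in CPEB1-KO. The WT libraries stood above all others and the WT-LPS libraries below all others on this measure.

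With the length trend removed from each library, a setting added after seeing the data, 4 members were lower and 5 higher in WT-LPS against WT, where 11.8% of all genes were lower and 12.2% higher. The lower ones were Cox8b (-1.32, adjusted p = 0.0259), Cox7a1 (-1.16, 0.0394), Cox6b2 (-1.12, 0.0442) and Atp5k (-0.69, 0.0347). Their transcripts were 360, 393, 517 and 371 nt long, toward the short end of the members, which starts at 315 nt. How well the trend was removed at that end was not tested. The higher ones were Uqcrc2 (0.91, adjusted p = 0.0104), Ndufa12, an accessory subunit of complex I (0.58, 0.0223), Ndufa10, another of its accessory subunits (0.66, 0.0316), Ndufc2, a membrane-arm subunit (0.55, 0.0404), and Cox8a (0.76, 0.0493). The median of the members was then 0.20, beside 0.03 over all tested genes. The falls of the small subunits of complexes I and III and of the other members of complex V were not called in this setting, and the part of length in them was not tested further.

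**Figure D4:**
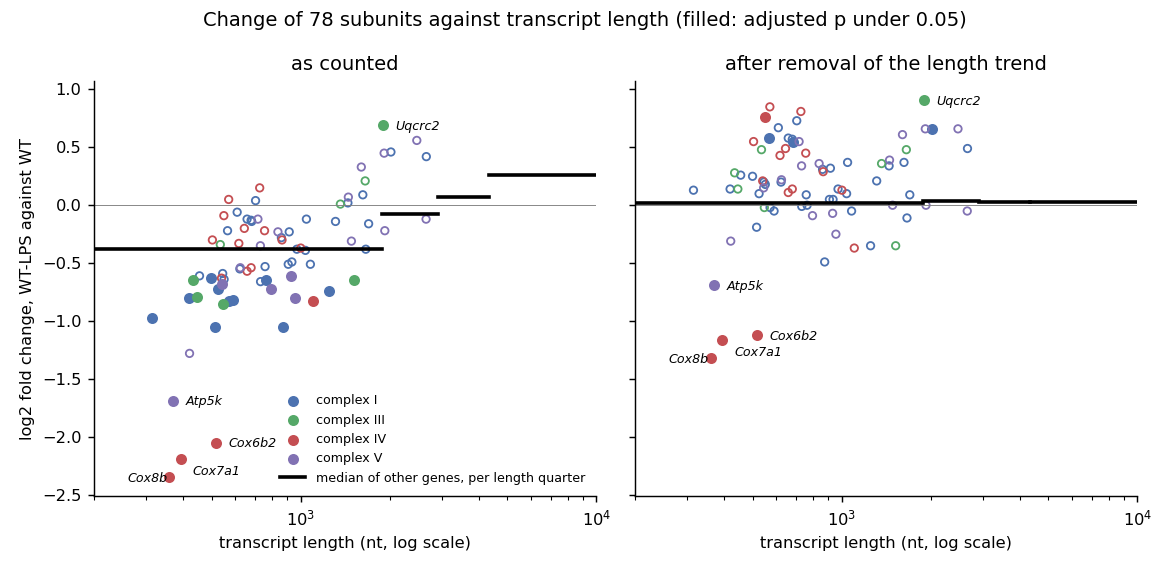
Log2 fold change in WT-LPS against WT of the 78 tested subunits against transcript length (log axis), from the counts (left) and after a trend with length was removed from each library (right), coloured by complex; filled points have an adjusted p under 0.05. Black bars are the medians of the other genes in 4 equal length classes, from -0.38 in the shortest to 0.26 in the longest on the left; Cox8b, Cox7a1, Cox6b2 and Atp5k stay the lowest points on the right.

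Markers of other cells differed between WT-LPS and WT as well, where 14.9% of all tested genes were called lower and 12.4% higher. The 6 markers of choroid plexus and ependyma, all of them called lower, summed to 1123 to 2300 TPM in WT-LPS, against 4436 to 7773 TPM in WT. The 4 erythroid markers, all called lower, summed to 6544 to 10887 TPM in WT-LPS, against 41663 to 66991 TPM in WT. Of the 10 microglial markers 5 were lower, at 3424 to 16265 TPM in WT-LPS, against 11546 to 14319 TPM in WT, and of 9 endothelial and mural markers 4 were higher, at 59.1 to 170.6 TPM in WT-LPS, against 25.7 to 31.9 TPM in WT. Border macrophage markers were lower in 4 of 5, at 12.7 to 17.7 TPM in WT-LPS, against 31.3 to 45.9 TPM in WT. Monocyte and neutrophil markers were higher in 3 of 8 and oligodendrocyte markers lower in 2 of 8, with 1 of 8 astrocyte markers and 1 of 12 neuronal markers higher (median log2 fold change of 0.54 over the neuronal markers). The part of these differences in the subunit results was not tested.

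In the libraries labelled knockout, LPS moved few subunits past the threshold. In CPEB1-KO-LPS against CPEB1-KO, 2 of 78 members were lower and 0 higher, where 2.12% of all tested genes were lower and 4.1% higher. At an unadjusted p under 0.05 there were 3 members, and DESeq2 called 2, both lower, where it called 4.43% of all genes lower. Cox8b had 60.9, 43.0 and 27.1 TPM in CPEB1-KO-LPS, against 144.7, 110.4 and 104.3 TPM in CPEB1-KO, with a log2 fold change of -1.34 ± 0.35 (adjusted p = 0.0399). Cox6b2 had 18.4, 17.5 and 14.8 TPM in CPEB1-KO-LPS, against 63.5, 40.8 and 38.7 TPM in CPEB1-KO, with a log2 fold change of -1.38 ± 0.37 (adjusted p = 0.0447). In both genes all CPEB1-KO-LPS libraries lay below all CPEB1-KO libraries. Their shares of the pair sums were lower too, at 2.03%, 1.44% and 0.894% for Cox8b in CPEB1-KO-LPS, against 3.68%, 3.03% and 2.4% in CPEB1-KO.

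The other members were close to 0 on balance, with a median log2 fold change of -0.11 beside 0.00 over all tested genes. Cox7a1 had 44.2, 33.2 and 30.2 TPM in CPEB1-KO-LPS, against 67.2, 75.1 and 43.3 TPM in CPEB1-KO, with a value of -0.63 ± 0.35 that did not pass (adjusted p = 0.342). Atp5k had 5368, 5332 and 2245 TPM in CPEB1-KO-LPS, against 6859, 6903 and 6769 TPM in CPEB1-KO, with a value of -0.52 ± 0.24 (adjusted p = 0.239). The third CPEB1-KO-LPS library stood apart in Atp5k, and it also held 61141 TPM of erythroid markers, against 7051 and 11851 TPM in the other CPEB1-KO-LPS libraries and 27877 to 37849 TPM in CPEB1-KO. Choroid plexus and ependyma markers, 4 of 6 called lower, summed to 2516 to 3720 TPM in CPEB1-KO-LPS, against 7161 to 9154 TPM in CPEB1-KO, and their part was not tested. The count of 2 was 0 without any 1 of the CPEB1-KO libraries or without CPEB1-KO-LPS replicate 2 or 3, 1 without CPEB1-KO-LPS replicate 1, WT replicate 1 or WT-LPS replicate 2 or 3, and 0 with the length trend removed or with a replicate block.

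Whether the LPS response itself differed between the genotypes was tested as a difference of responses, the one in the libraries labelled knockout minus the one in wild type. At an adjusted p under 0.05, 0 of 78 members passed, where 0.00654% of all genes did; 5 members had an unadjusted p under 0.05, and DESeq2 called 1, Atp5k, where it called 1.97% of all genes. The smallest p belonged to Atp5k at 1.17 ± 0.34 (adjusted p = 0.2), Cox7a1 at 1.56 ± 0.51 (adjusted p = 0.221) and Ndufa5 at 0.89 ± 0.29 (adjusted p = 0.221). The median over the members was 0.37, beside 0.05 over all genes, and with the length trend removed it was -0.33. The difference thus changed sign with the handling of length.

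The genotype comparisons called 0 members. In CPEB1-KO-LPS against WT-LPS, where 0.00654% of all tested genes passed, 8 members had an unadjusted p under 0.05 and DESeq2 called 0, beside 0.588% of all genes. Positive values were found for 74 of 78 members, with a median of 0.31 beside 0.06 over all genes, and for 34 of 78 with a median of -0.02 when the length trend was removed. Cox8b had the smallest p, with 60.9, 43.0 and 27.1 TPM in CPEB1-KO-LPS, against 25.7, 9.22 and 19.1 TPM in WT-LPS. All CPEB1-KO-LPS libraries were above all WT-LPS libraries, and the log2 fold change was 1.37 ± 0.38 (adjusted p = 0.361). Atp5k was at 0.73 ± 0.24 (adjusted p = 0.42) and Ndufa5 at 0.56 ± 0.21 (adjusted p = 0.422).

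In CPEB1-KO against WT, where 0.0327% of all tested genes passed, 1 member had an unadjusted p under 0.05 and DESeq2 called 0, beside 3.39% of all genes. The median over the members was 0.01, beside -0.03 over all genes, and 40 of 78 were positive. With the length trend removed the median was 0.29, beside -0.04 over all genes, with 69 of 78 positive and 10 with an unadjusted p under 0.05. On log2(TPM + 1) with limma it was 0.37, beside 0.26 over all genes, with 73 of 78 positive; 0 members were called in either setting. Uqcrc2 had 145.7, 181.3 and 191.7 TPM in CPEB1-KO, against 140.0, 75.3 and 77.4 TPM in WT, without overlap and with a log2 fold change of 0.52 ± 0.23 (adjusted p = 0.252). Atp5k was at -0.45 ± 0.24 (adjusted p = 0.327). This comparison shares the WT libraries with the LPS comparison in wild type, and the one between LPS-treated groups shares the WT-LPS libraries with it. Snap25 had 1405 to 2208 TPM in CPEB1-KO, against 572 to 1457 TPM in WT, which overlapped. Of the 12 neuronal markers 0 were called in this comparison, with a median log2 fold change of 0.82. With Snap25 as a covariate 0 members were called too.

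Over both treatments, 6 libraries labelled knockout against 6 of wild type, 0 of 78 members passed, where 0.111% of all genes did; 2 had an unadjusted p under 0.05 and DESeq2 called 0, beside 0.706% of all genes. The median was 0.17, beside 0.01 over all genes. Cox8b was at 0.82 ± 0.29 (adjusted p = 0.39), Atp5g1, which encodes the c-ring subunit, at 0.41 ± 0.18 (adjusted p = 0.424) and Ndufb8, an accessory subunit of complex I, at 0.34 ± 0.17 (adjusted p = 0.441).

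Within groups the share of subunits with a called rise with Snap25 was near that of all genes in the main fit. On log2(TPM + 1) with limma it was 57.7%, beside 12.7% of all genes. The slope of each gene on the log2 CPM of Snap25 was fitted with a mean for each group. It was called positive for 9 of 78 members (11.5%), where 8.75% of all tested genes were, and negative for 0, where 6.37% were. The median slope was 0.23 log2 units per log2 unit of Snap25, beside -0.02 over all tested genes, and 72 of 78 were positive. On simulated counts the edgeR slope test recovered 3% of slopes of 0.5 and 58% of slopes of 1. The simulation changed few genes and gave every gene the same spread, so these rates need not hold for the members. A slope that was not called is not shown to be absent. The smallest p belonged to Ndufb10, an accessory subunit of the membrane arm of complex I, with a slope of 0.42 ± 0.11 (adjusted p = 0.0239). Ndufa4 followed at 0.49 ± 0.13 (adjusted p = 0.0245), then Ndufs5 at 0.36 ± 0.10 (adjusted p = 0.0296), Ndufv2, a core subunit with an iron-sulphur cluster, at 0.42 ± 0.12 (adjusted p = 0.0312) and Cox7a2 at 0.52 ± 0.15 (adjusted p = 0.034). The other called members were Uqcrc2, Ndufa10, Ndufs1 and Cox5a.

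Ndufa4 had 2102, 1309 and 1151 TPM in WT-LPS and 1972, 971 and 842 TPM in WT, highest in the library of each with the most Snap25. In CPEB1-KO-LPS it had 2087, 2062 and 1481 TPM and in CPEB1-KO 1898, 2052 and 2279 TPM, where it was lowest at the lowest Snap25 in both. The tissue-restricted forms had slopes of 0.18 for Cox8b, -0.20 for Cox7a1 and -0.22 for Cox6b2, and none passed. Of the 11 neuronal markers other than Snap25, 7 had a called positive slope, with a median of 0.75, and microglial markers a called negative one in 8 of 10, with a median of -1.17. The slopes rested on few libraries: the count of 9 was 0 without WT-LPS replicate 1 or 3, 0 without WT replicate 1 and WT-LPS replicate 1 together, when Ndufb10 was at -0.02 and 0 of all 15489 genes had a called slope, 2 without WT replicate 1 or any 1 of the CPEB1-KO libraries, 3 without CPEB1-KO-LPS replicate 1 or 2, 0 with a replicate block, where 0.608% of all genes were called, and 45 with limma on log2(TPM + 1), where 12.7% of all genes were called positive.

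**Figure D5:**
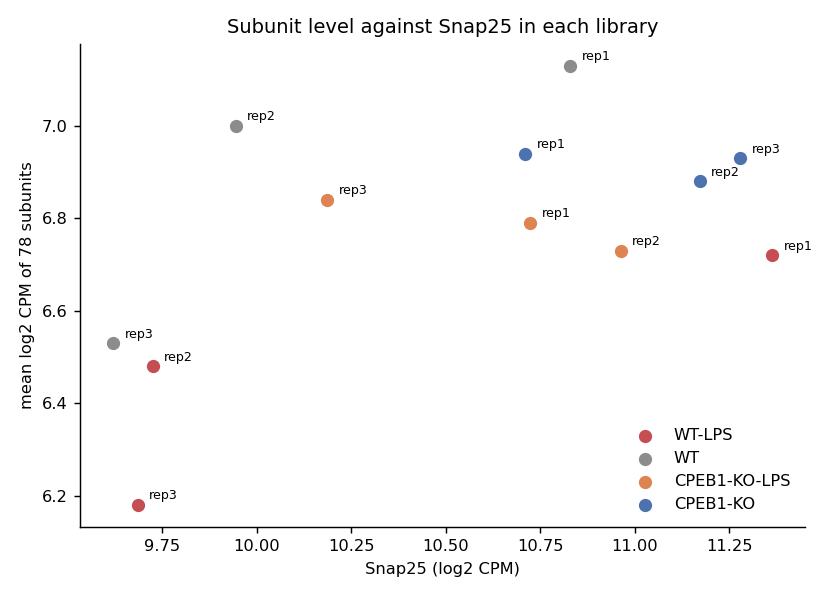
Mean log2 CPM of the 78 tested subunits against the log2 CPM of Snap25 in each library, coloured by group and labelled with the replicate. Within WT-LPS and WT the library furthest right is the highest (6.72 and 7.13), in CPEB1-KO-LPS it is the lowest (6.73), and in CPEB1-KO it lies at 6.93, below the library with the least Snap25 (6.94).

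With Snap25 as a covariate, the LPS comparison in wild type called 37 members, 34 lower and 3 higher, where 19.6% of all genes were lower and 16.8% higher. In CPEB1-KO against WT the covariate gave a median of -0.19, against 0.01 without it. With it, 0 members were called in either genotype comparison.

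Other genes of the pathway were taken from lists of assembly factors, complex II, the tricarboxylic acid cycle and inflammatory partners. In WT-LPS against WT, 3 of 14 assembly factors of complex I were lower, among them Ndufaf2 (-1.49, adjusted p = 0.00212) and Timmdc1 (-1.24, adjusted p = 0.00337). Of 6 assembly factors of complex III 3 were lower, led by Uqcc2 (-1.25, adjusted p = 0.00086). Among 19 assembly factors of complex IV, 8 were lower and 1, Coa7, was higher, where 14.9% of all tested genes were lower and 12.4% higher. With the length trend removed 2, 2 and 5 of these assembly factors of complexes I, III and IV were lower, and their medians were -0.18, -0.34 and -0.13, against -0.50, -0.85 and -0.53 without it; Uqcc2 was then at -0.36 (adjusted p = 0.103). Coa4, one of the 8 lower assembly factors of complex IV, had 5.33, 0.79 and 1.88 TPM in WT-LPS, against 17.9, 18.0 and 14.4 TPM in WT, and Cox20, a chaperone of the catalytic subunit COX2, had 109.3, 84.5 and 90.7 TPM in WT-LPS, against 218, 228 and 226 TPM in WT. For both genes the groups did not overlap, with log2 fold changes of -3.00 and -1.61 (adjusted p = 0.00128 and 0.000507).

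The 4 subunits of complex II, succinate dehydrogenase, showed no call in either LPS comparison, with a median of 0.11 in WT-LPS against WT. With the length trend removed the median was 0.42, and 1 of them, Sdhd, a membrane anchor of the complex, was called higher (0.61, adjusted p = 0.0413). Among the enzymes of the tricarboxylic acid cycle reported here, Dld was higher in WT-LPS than in WT (0.58, adjusted p = 0.0249). Idh3g, a subunit of isocitrate dehydrogenase, was lower (-0.77, adjusted p = 0.0332), with 210.25, 154.6 and 143.63 TPM in WT-LPS, against 191.83, 178.46 and 309.69 TPM in WT, which overlapped, and was not called with the length trend removed (-0.42, adjusted p = 0.2). In CPEB1-KO-LPS against CPEB1-KO 0 of these enzymes were called and, among the assembly factors, Lyrm7 (-1.06, adjusted p = 0.0359) and Coa4 (-1.96, adjusted p = 0.0251) were lower.

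Of 7 inflammatory and uncoupling partners of the chain, 2 were higher in each LPS comparison, AA467197 and Irg1. Of all tested genes 12.4% were higher and 14.9% lower in WT-LPS against WT, and 4.1% higher and 2.12% lower in CPEB1-KO-LPS against CPEB1-KO. In WT-LPS against WT 2 others were lower, Romo1 (-0.88, adjusted p = 0.0103) and Higd2a (-1.13, adjusted p = 0.00153), neither of them called with the length trend removed, and in CPEB1-KO-LPS against CPEB1-KO 0 were lower. AA467197, a relative of Ndufa4 that is induced in inflammation and replaces it in complex IV, had 79.6, 80.8 and 94.9 TPM in WT-LPS, against 2.01, 2.55 and 1.36 TPM in WT. It had 39.9, 24.4 and 100.1 TPM in CPEB1-KO-LPS, against 2.93, 3.84 and 1.14 TPM in CPEB1-KO. Within each genotype the LPS libraries were all far above those whose label names no LPS. The log2 fold changes were 5.05 ± 0.68 (adjusted p = 0.000428) and 4.51 ± 0.62 (adjusted p = 0.000839). Irg1 (Acod1), whose product makes itaconate, an inhibitor of succinate dehydrogenase, had 71.2, 89.5 and 199.8 TPM in WT-LPS, against 0, 0.1 and 0 TPM in WT, and 40.4, 64.5 and 169.2 TPM in CPEB1-KO-LPS, against 0.07, 0 and 0.31 TPM in CPEB1-KO. Irg1 passed in both comparisons (adjusted p = 5.20e-05 and 7.01e-05). Ucp2, an inner-membrane carrier, and Ppargc1a, a coactivator of mitochondrial genes, did not pass in WT-LPS against WT (1.13 and 0.51, adjusted p = 0.0875 and 0.223).

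Outside the members, the genes whose log2(TPM + 1) followed the members' mean most closely over the 12 libraries were Chchd6, Tagln3, Fabp3, Pef1 and Tmem125, with Pearson's r of 0.981, 0.977, 0.975, 0.974 and 0.973. Among the members Ndufb2, an accessory subunit of complex I, was closest to the mean of the others, with r of 0.978. These values describe the 12 libraries, which share the cell mixture and depth within each library, and carry no test.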

How the data were processed

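The authors deposited 2 tables of 23845 genes by 12 libraries: expected counts per gene, not normalised between libraries, and TPM computed within each library. Per the submitters' processing notes, cutadapt, RSEM and genome build mm10 were used; no source used here gives versions, the aligner or filters. How reads shared with pseudogene copies of subunits were divided is not stated. Expected counts were rounded; edgeR 4.0.16 (R 4.3.3) was the main test: filterByExpr by group left 15295 genes, TMM scaling, a mean for each of 4 groups, 8 residual degrees of freedom (7 for the slope on Snap25), with a common biological variation coefficient of 0.2825. Tests were two-sided, with Benjamini-Hochberg adjustment over all genes at 0.05. DESeq2 1.42.0 and limma 3.58.1 were alternatives. On simulated counts for WT-LPS against WT over 15111 genes, edgeR recovered 23% of 2-fold and 95% of 4-fold changes. The simulation changed few genes and gave all of them the same spread. Transcript lengths and positions came from GENCODE M21 and promoters from RefSeq. Each library is 1 animal, so p-values measure the spread between animals. The labels do not say what a replicate number shares. As a hint from the data, deviations from group means correlated over 0.1 in each of the 3 same-numbered pairs of WT-LPS and WT (0.149 to 0.378) and in not all pairs of any other 2 groups, so that comparison was also fitted with the number as a block. Pairs with different numbers ran from -0.382 to 0.377, and WT-LPS replicate 3 with WT replicate 2 stood at 0.141. Whether pairs share the number or only a like cell mixture was not tested. The members, gene lists and tests were chosen with earlier results of these data known. Genes named are the member with the highest mean TPM of each complex, up to 5 called members in each direction with the smallest p (3 where none passed), a fixed set of isoforms and core subunits, and up to 3 called genes of other lists. The names of the other called members, of the promoters shown and of Atp5e in the observations were chosen after their values were seen. A gene of the tricarboxylic acid cycle list is not reported here.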

Additional observations from a re-analysis of the deposited data

How the results depend on the processing

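Cox8b, Cox7a1, Cox6b2 and Atp5k in WT-LPS against WT kept their direction and their call in the 25 alternatives run, with adjusted p of at most 0.0442. The count of 24 called members there was 37 with Snap25 as covariate and 8, all lower, with only the groups compared in the fit. In that fit 10.3% of members were lower, beside 9.44% of all genes, and 0 were higher, beside 8.24%. The count was 9 with the length trend removed, 10 with limma on log2(TPM + 0.1) or log2(TPM + 1), and 8 to 28 leaving out 1 library. In CPEB1-KO-LPS against CPEB1-KO the count of 2 was 0 with the length trend removed, 1 without WT replicate 1 and WT-LPS replicate 1, and 0 to 2 leaving out 1 library. Without that pair of libraries 3 members (3.85%, beside 15.2% of all genes) were called in CPEB1-KO against WT, 1 (1.28%, beside 2.91%) in the difference of the LPS responses (also 1 with DESeq2) and 2 (2.56%, beside 7.26%) over both treatments. The count of 9 slopes on Snap25 was 5 with RLE scaling or the neuron marker covariate, 44 and 45 with limma on TPM, 0 without that pair (also 0 of all genes) and 0 to 12 leaving out 1 library. Called values that changed sign were Uqcr11 at 0.14 with the length trend removed and the slope of Ndufb10 at -0.02 without that pair (up to 0.49 leaving out 1 library); Cox8a, not called, was called at 0.76 with the length trend removed. The other sign changes were in values called in neither setting. In WT-LPS against WT they were Ndufa4 (0.67), Cox4i1 (0.45), Cox5b (0.29), Cox6a2 (0.14) and Ndufa4l2 (0.05) with the length trend removed; Cox8a and Ndufa4 (0.32 each), Cox4i1 (0.17) and Cox5b (0.08) with limma on log2(TPM + 0.1) or log2(TPM + 1); Cox4i2 (-0.11), Cox6a1 (-0.04) and Uqcrfs1 (-0.22) with the neuron marker covariate; Uqcrfs1 (-0.03) with the Snap25 covariate; and Ndufa4 (0.01) with no filter. Leaving out 1 library or that pair gave -0.32 to 0.21 for Cox8a, -0.29 to 0.29 for Ndufa4, -0.05 to 0.29 for Cox4i2, -0.28 to 0.72 for Cox6a1 and -0.22 to 0.19 for Uqcrfs1. In CPEB1-KO-LPS against CPEB1-KO they were Ndufa4 (0.15 and 0.12), Cox5b (0.03 and 0.02), Cox6a1 (0.02 and 0.08) and Uqcrfs1 (0.07 and 0.03) with the Snap25 and the neuron marker covariate; Ndufa4 (0.00) and Cox6a1 (0.04) with the length trend removed; and Ndufa4l2 (-0.11 and -0.05) and Cox4i1 (-0.06 and -0.06) with limma at the smaller and the larger pseudocount. Leaving out 1 library or that pair gave -0.11 to 0.01 for Ndufa4, -0.49 to 0.27 for Ndufa4l2, -0.20 to 0.15 for Cox4i1 and -0.40 to 0.16 for Cox6a1. The cause of these changes was not tested. The summed TPM in CPEB1-KO averaged 62921 without Atp5k, against 69764 with it. With a replicate block over all libraries the counts were 22 in WT-LPS against WT, 0 in CPEB1-KO-LPS against CPEB1-KO and 0 for the slope, where the same-numbered libraries of the other groups did not all deviate together: over the 18 same-numbered pairs the correlation ran from -0.344 to 0.378, and 3 of 12 libraries correlated best with their own number. With the block over the WT-LPS and WT libraries alone, added after seeing the data, the count was 20, beside 8 in those libraries without it. Of the values of single named genes under the alternatives, 283 were called in both with the same sign, 922 were called in neither and kept their sign, 93 lost their call, 7 gained one and 59 changed sign, of which 56 were called in neither. With 3 animals a group, 2-fold changes were mostly missed in simulated counts (23% recovered). That simulation changed few genes and gave every gene the same spread, so the rate need not hold for the members. Members that did not pass are not shown to be unchanged.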

Other observations

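The mitochondrial ribosome, which translates the mitochondrially encoded subunits, showed a like pattern to that of the subunits in WT-LPS against WT: of 77 of its genes 21 were lower and 2 higher, with a median log2 fold change of -0.27, beside -0.03 over all tested genes. Of all tested genes 14.9% were lower and 12.4% higher. Mrpl24 (-1.96, adjusted p = 0.000822) and Mrpl14 (-1.70, adjusted p = 0.00276) were among the lower genes, and Mrps18b (0.93, adjusted p = 0.0179) was higher. With the length trend removed 6 were lower and 9 higher, with a median of 0.04. In CPEB1-KO-LPS against CPEB1-KO 0 of the 77 were called, with a median of 0.09, where 2.12% of all tested genes were lower and 4.1% higher. Of 14 regulators of mitochondrial gene expression 2 were higher in WT-LPS, where 12.4% of all tested genes were. They were Tfam, which packages mitochondrial DNA (0.65, adjusted p = 0.016), and Hif1a, the hypoxia-inducible factor (1.62, adjusted p = 0.00144). Nfe2l2, a regulator of antioxidant genes, was lower (-1.18, adjusted p = 0.00899). These values held their call and sign with the length trend removed, at 0.56, 1.47 and -1.07.

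Atp5e, the epsilon subunit of the ATP synthase, was nearly absent from 1 library. It had 41 expected counts in CPEB1-KO replicate 3, against 1002 to 2132 counts in the other 11 libraries. Its level there was 38.5 TPM, against 2136 and 1079 TPM in the other CPEB1-KO libraries and 997 to 2639.8 TPM elsewhere. On counts scaled to library size (CPM) it lay 23.2-fold below the lowest of the other libraries. Among 8776 genes with at least 10 CPM in each of the other libraries this was the lowest such ratio, and the next lowest, of S100a8, was 0.385. Slmo2, its neighbour on chromosome 2, was at 55.1 TPM in that library, against 54.3 and 60.0 TPM in the other CPEB1-KO libraries. The 3 CPEB1-KO values give a log2 fold change of -1.47 ± 0.78 in CPEB1-KO against WT (adjusted p = 0.324).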
